A study of Mus musculus with 6 samples.

Results

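The islands described here are stretches of chromatin enriched in TH2B that lie beside the centromeres of mouse autosomes. TH2B is an H2B variant made in the male germ line, where it takes the place of somatic H2B during meiosis and stays in the chromatin of round spermatids until histones give way to protamines. Mouse chromosomes carry the centromere at one end. The minor satellite at the centromere and the major satellite beside it are tandem repeats packed as constitutive heterochromatin, and in germ cell nuclei the pericentric blocks of several chromosomes gather into chromocentres. These repeats are almost wholly missing from the assembly, whose sequence on the autosomes starts near 3 Mb in mm9. The islands closest to that start are therefore the assembled sequence nearest to the centromere, and reads from repeats that have few assembled copies can pile up on the copies that exist.

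Islands were taken from chromosomes 1 to 19 without chromosome 14, which leaves 18 autosomes, when their start lay below 7 Mb. The members were chosen by position alone, with no use of reads or folds. There were 575 such islands of 17340 in round spermatids, 432 of 15585 in spermatocytes and 344 of 13582 in wild-type germ cells, 1351 of 46507 in all. They were compared with the 1378, 1243 and 791 islands that start between 10 and 20 Mb on the same chromosomes. Islands just inside the boundary resembled those just outside it in number and median fold. From 6.5 to 7 Mb there were 83 islands in round spermatids, 67 in spermatocytes and 52 in wild-type germ cells, with median folds over input of 1.47, 1.54 and 1.42. From 7 to 7.5 Mb there were 79, 62 and 55 islands, with median folds of 1.46, 1.45 and 1.47. The shares with a fold of at least 2 were less alike, at 6.02%, 10.4% and 3.85% inside and 2.53%, 1.61% and 7.27% outside. They rested on 1 to 7 islands each, and the counting intervals of the inner and outer shares overlapped in each list.

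ChIP-seq was done on round spermatids (post-meiotic) and on spermatocytes (meiotic) of adult Th2b+/tag mice, in which 1 copy of the gene encodes TH2B with His, Flag and HA tags at its C-terminus, using an antibody to HA after separation of the cells on a BSA gradient. It was also done on total male germ cells of adult wild-type mice, a mixture of stages, using an antibody to TH2B itself. Each of the 3 ChIP libraries had an input library by its title, and there was 1 library per group. The tagged mice keep an untagged copy that the HA antibody does not see. Antibody, genotype and cell mixture all differ between the tagged and the wild-type list, so their effects cannot be told apart. The islands are broad enriched regions called by the authors, and a fold is the authors' ratio of ChIP to input reads scaled between the libraries.

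Each group being 1 library, the spread between replicates is unknown and groups could not be tested against each other, and every interval given here is a 95% interval of counting error only. Neighbouring islands are not independent, so these intervals are too narrow. A list also grows with sequencing depth. The lists held 3061563 ChIP reads in islands for round spermatids, 2375595 for spermatocytes and 1872812 for wild-type germ cells, and reads outside islands were not used here. A median island near the centromere rested on 121 ChIP and 88 input reads in round spermatids, 104 and 80.5 in spermatocytes, and 121 and 81 in wild-type germ cells.

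Over all 18 autosomes, the 4 Mb next to the centromere carried about as many TH2B islands per Mb as the chromosome arm further out. Round spermatids had 7.99 islands per Mb near the centromere (7.35 to 8.67) and 7.66 at 10 to 20 Mb (7.26 to 8.07), a ratio of 1.04 (0.945 to 1.15). Spermatocytes had 6.0 (5.45 to 6.59) and 6.91 (6.53 to 7.30), a ratio of 0.869 (0.777 to 0.970). Wild-type germ cells had 4.78 (4.29 to 5.31) and 4.39 (4.09 to 4.71), a ratio of 1.09 (0.955 to 1.24). With all chromosomes the counting interval left out 1 in spermatocytes alone. Single chromosomes decided on which side of 1 these intervals lay. In spermatocytes the interval held 1 without chromosome 19 (0.928, 0.828 to 1.04), 18 (0.906, 0.809 to 1.01), 2 (0.904, 0.806 to 1.01) or 11 (0.897, 0.801 to 1.003). It also held 1 when the lists were limited to folds of 2 or more (1.03, 0.712 to 1.47) or to an FDR of at most 0.0001 (0.863, 0.735 to 1.01). The same was true with 20 to 30 Mb as the comparison (0.898, 0.802 to 1.003). The spermatocyte interval stayed below 1 with input at most 2 times the median and with near windows to 5 or 10 Mb. It did so as well when islands were placed by midpoint and without the first 100 kb. In round spermatids it lay above 1 without chromosome 19 (1.11, 1.01 to 1.23) or 11 (1.11, 1.002 to 1.22), and in wild-type germ cells without chromosome 8 (1.17, 1.02 to 1.33) or with the near window drawn to 10 Mb (1.14, 1.02 to 1.27). Assembly gaps were not subtracted in either window.

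The typical island near a centromere did not stand out in input, fold or length. Median input density was 25.5 reads per kb near the centromere and 25.5 at 10 to 20 Mb in round spermatids, 22.9 and 22.7 in spermatocytes, and 32.7 and 32.5 in wild-type germ cells. Median fold was 1.45 (1.42 to 1.47) and 1.46 (1.45 to 1.47) in round spermatids, 1.49 (1.46 to 1.52) and 1.5 (1.48 to 1.52) in spermatocytes, and 1.46 (1.43 to 1.5) and 1.47 (1.45 to 1.49) in wild-type germ cells. Median length was 3600 bp near the centromere and 3400 bp further out in round spermatids, 3600 bp in both windows in spermatocytes, and 2600 bp in both in wild-type germ cells. The intervals of the near window and of 10 to 20 Mb overlapped for each of these medians, and input density differed more between the lists than between the windows.

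The share of strongly enriched islands near the centromere had a counting interval that held the share of the whole list, in all 3 lists. In round spermatids 30 of 575 near islands had a fold of 2 or more (5.22%, exact Clopper-Pearson interval 3.55 to 7.36), beside 7.11% at 10 to 20 Mb and 6.37% of the whole list. In spermatocytes 45 of 432 islands reached it (10.4%, 7.70 to 13.7), beside 8.77% and 8.84%. In wild-type germ cells 22 of 344 reached it (6.40%, 4.05 to 9.52), beside 8.09% and 6.25%.

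The pooled values hide a large spread between chromosomes. In round spermatids the lowest density near the centromere was 0.75 islands per Mb (chromosome 19), the median 7.75 and the highest 16.3 (chromosome 1). The lowest density in spermatocytes was 0.50 (chromosome 19), the median 5.88 and the highest 12 (chromosome 13). In wild-type germ cells the lowest was 1.25 (chromosomes 3 and 9), the median 4.63 and the highest 9.75 (chromosome 17). The range was narrower at 10 to 20 Mb, from 3.50 to 11.7, from 2.70 to 11.1 and from 1.60 to 8.30. Near densities were counted over 4 Mb per chromosome and these over 10 Mb, so the near values carry more counting error. The widths of the ranges are therefore not directly comparable.

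**Figure D1:**
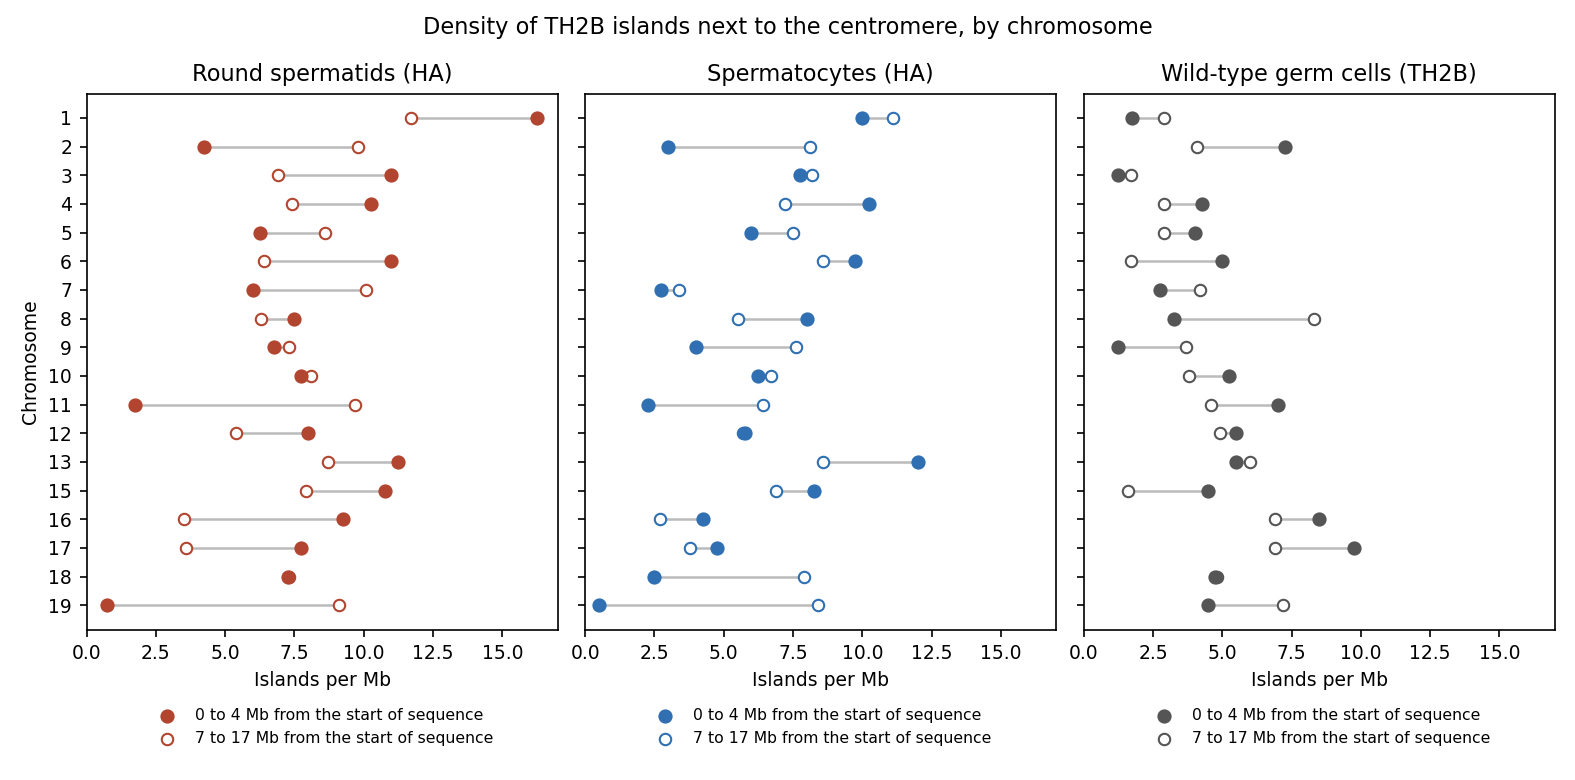
Islands per Mb on each of 18 autosomes (vertical axis) in the 3 lists, in the first 4 Mb of sequence (filled points, starts below 7 Mb) and from 7 to 17 Mb into the sequence (open points, starts from 10 to 20 Mb). Chromosomes 11 and 19 have few islands near the centromere in both tagged lists and not in the wild-type list.

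Chromosome 19 showed the widest gap between its windows. It had 3 islands below 7 Mb and 91 from 10 to 20 Mb in round spermatids, a ratio of densities of 0.0824 (0.0167 to 0.249). In spermatocytes it had 2 and 84 islands (0.0595, 0.00709 to 0.222). In wild-type germ cells it had 18 and 72 (0.625, 0.351 to 1.06), so native TH2B islands were present in the same 4 Mb.

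Chromosome 11 was also sparse near the centromere in both tagged lists and not in the wild-type list. It had 7 islands near the centromere and 97 further out in round spermatids (ratio 0.180, 0.0707 to 0.386) and 9 and 64 in spermatocytes (0.352, 0.154 to 0.710). In wild-type germ cells it had 28 and 46 (1.52, 0.916 to 2.49). Chromosome 2 had 17 and 98 islands in round spermatids (0.434, 0.243 to 0.730), 12 and 81 in spermatocytes (0.370, 0.184 to 0.683) and 29 and 41 in wild-type germ cells (1.77, 1.06 to 2.92). On chromosome 2 the interval of the ratio lay below 1 in both tagged lists and above 1 in the wild-type list. Chromosome 18 was sparse near the centromere in spermatocytes, with 10 and 79 islands (0.316, 0.146 to 0.613), while round spermatids had 29 and 73 (0.993, 0.623 to 1.546).

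Other chromosomes were denser near the centromere than further out. In round spermatids the interval lay above 1 on 5 chromosomes (1, 3, 6, 16 and 17) and below 1 on 4, with the highest ratios on chromosome 16 (37 and 35 islands, 2.64, 1.62 to 4.32) and chromosome 17 (31 and 36, 2.15, 1.29 to 3.58). In spermatocytes it lay above 1 on 0 and below 1 on 5. The wild-type list had it above 1 on 3 (chromosomes 2, 6 and 15) and below 1 on 2, with the highest ratio on chromosome 6 (20 and 17 islands, 2.94, 1.46 to 5.98). These intervals were not corrected for the 18 chromosomes looked at.

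The chromosomes with most islands near the centromere also differed between the tagged lists and the wild-type list. Round spermatids had most on chromosomes 1, 13 and 6, with 65, 45 and 44 islands. Spermatocytes had most on chromosomes 13, 4 and 1, with 48, 41 and 40. Wild-type germ cells had most on chromosomes 17, 16 and 2, with 39, 34 and 29, and only 7 on chromosome 1. Over the 18 chromosomes the densities near the centromere correlated between round spermatids and spermatocytes with a Pearson r of 0.830 (Spearman rho 0.858). The correlation with wild-type germ cells was -0.289 (rho -0.100) for round spermatids and -0.250 (rho -0.202) for spermatocytes. At 10 to 20 Mb the same 3 pairs had r of 0.594 (rho 0.395), -0.333 (rho -0.218) and -0.461 (rho -0.394). These are descriptions over chromosomes, whose counts share a library, a depth and a caller.

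Within the 4 Mb, the first 100 kb held more islands per Mb than the stretch from 500 kb on in both tagged lists. That stretch had 7.41 islands per Mb in round spermatids, 5.87 in spermatocytes and 4.76 in wild-type germ cells. In the first 100 kb round spermatids had 32 islands on 14 chromosomes, 17.8 per Mb (12.2 to 25.1), and spermatocytes 23 on 14 chromosomes, 12.8 per Mb (8.10 to 19.2). Wild-type germ cells had 11 on 9 chromosomes, 6.11 per Mb (3.05 to 10.9), an interval that held the 4.76 of the stretch from 500 kb on. No chromosome held more than 4, 3 and 2 of these islands, so the count in each list was spread over many chromosomes.

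**Figure D2:**
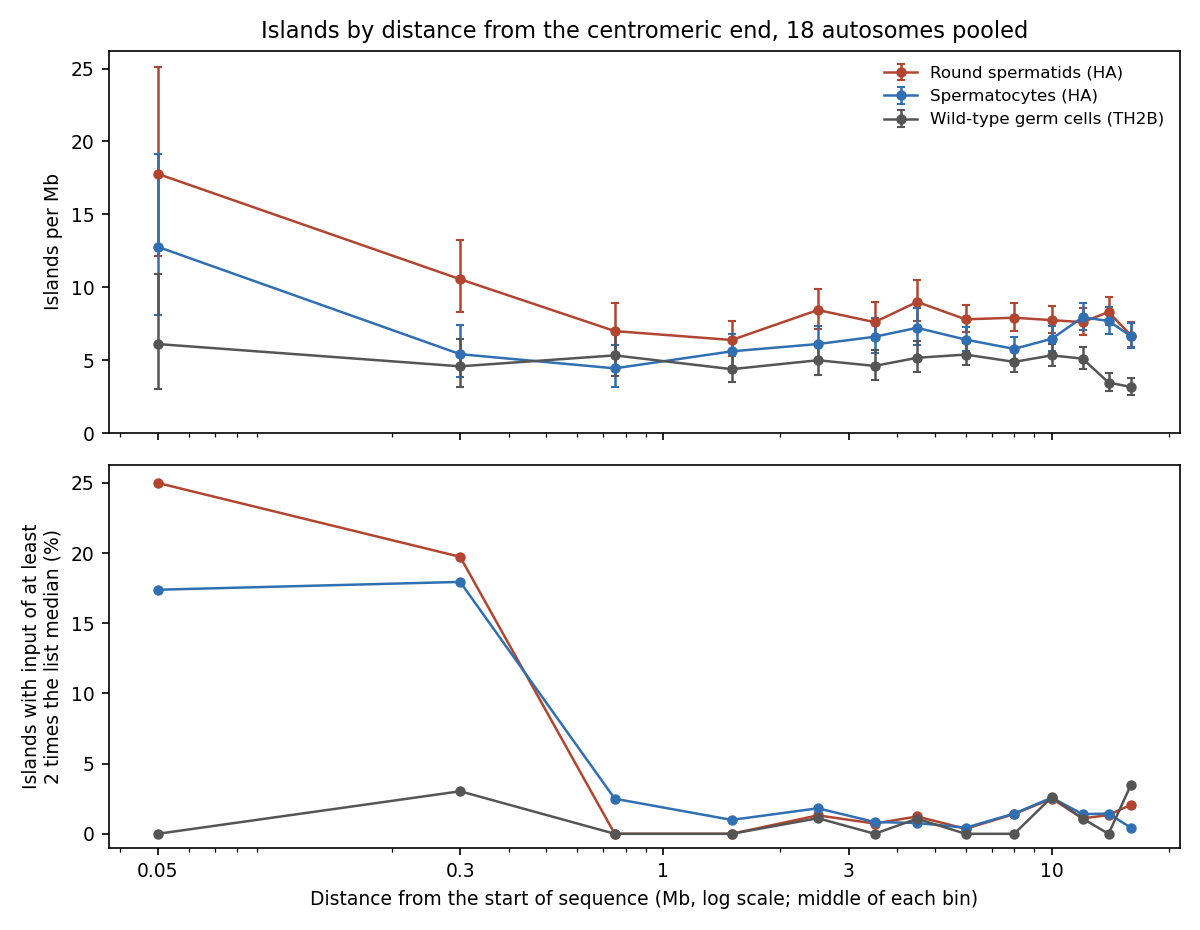
Islands per Mb (upper panel, with 95% counting intervals) and the percentage of islands whose input density is at least 2 times the list median (lower panel), by distance from the start of sequence in Mb on a log scale, 18 autosomes pooled. In the first 0.1 Mb round spermatids have 17.8, spermatocytes 12.8 and wild-type germ cells 6.11 islands per Mb, and from 0.1 to 0.5 Mb they have 10.6, 5.42 and 4.58.

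From 100 to 500 kb round spermatids had 10.6 islands per Mb (8.32 to 13.2), spermatocytes 5.42 (3.85 to 7.40) and wild-type germ cells 4.58 (3.15 to 6.44). Over the first 500 kb, a stretch chosen after the values were seen, round spermatids had 108 islands, 12 per Mb (9.84 to 14.5), spermatocytes 62, 6.89 per Mb (5.28 to 8.83), and wild-type germ cells 44, 4.89 per Mb (3.55 to 6.56). Relative to 10 to 20 Mb these were ratios of 1.57 (1.28 to 1.91), 0.998 (0.760 to 1.29) and 1.11 (0.802 to 1.51). From there to 7 Mb the ratios were 0.968 (0.870 to 1.08), 0.850 (0.755 to 0.956) and 1.08 (0.946 to 1.24).

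Islands of the first 500 kb had lower median folds in both tagged lists. Their median input was denser beyond counting error in round spermatids alone. Median input density there was 30.5 reads per kb (27.6 to 34.4), against 24.8 (24.25 to 25.5) in the rest of the window, in round spermatids. In spermatocytes it was 25.6 (23.25 to 27.9) against 22.5 (22 to 23.27), whose intervals overlap. The median fold was 1.36 (1.32 to 1.39) against 1.47 (1.44 to 1.5) in round spermatids, and 1.40 (1.33 to 1.45) against 1.5 (1.47 to 1.53) in spermatocytes. In wild-type germ cells the input was 35.5 (32.5 to 38.6) against 32.5 (31.8 to 33) reads per kb. The wild-type folds were 1.42 (1.35 to 1.61) and 1.47 (1.44 to 1.51). The intervals overlap for both measures. An island of dense input needs a smaller fold to be called, so fold and input density are tied by the calling itself.

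Input of at least 2 times the list median marked 23 of the 108 round spermatid islands in the first 500 kb (21.3%, 14 to 30.2), spread over 10 chromosomes, and 3 of the 467 further in (0.642%, 0.133 to 1.87). In spermatocytes it marked 11 of 62 (17.7%, 9.20 to 29.5), on 7 chromosomes, and 5 of 370 (1.35%, 0.440 to 3.13). In wild-type germ cells it marked 1 of 44 and 1 of 300. At 10 to 20 Mb it marked 1.67%, 1.45% and 1.39% of the islands in round spermatids, spermatocytes and wild-type germ cells.

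A handful of islands held most of the reads. Input of at least 10 times the list median was found in 6 islands near the centromere in round spermatids and in 5 in spermatocytes, all in the first 500 kb, and in none in wild-type germ cells. At 10 to 20 Mb there were 1, 1 and 0. Over the whole lists such islands numbered 107, 90 and 9, or 0.617%, 0.577% and 0.0663%. The 6 islands held 77.7% of all ChIP reads and 80.7% of all input reads in the near islands of round spermatids, and the 5 held 82.7% and 83.4% in spermatocytes.

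**Figure D3:**
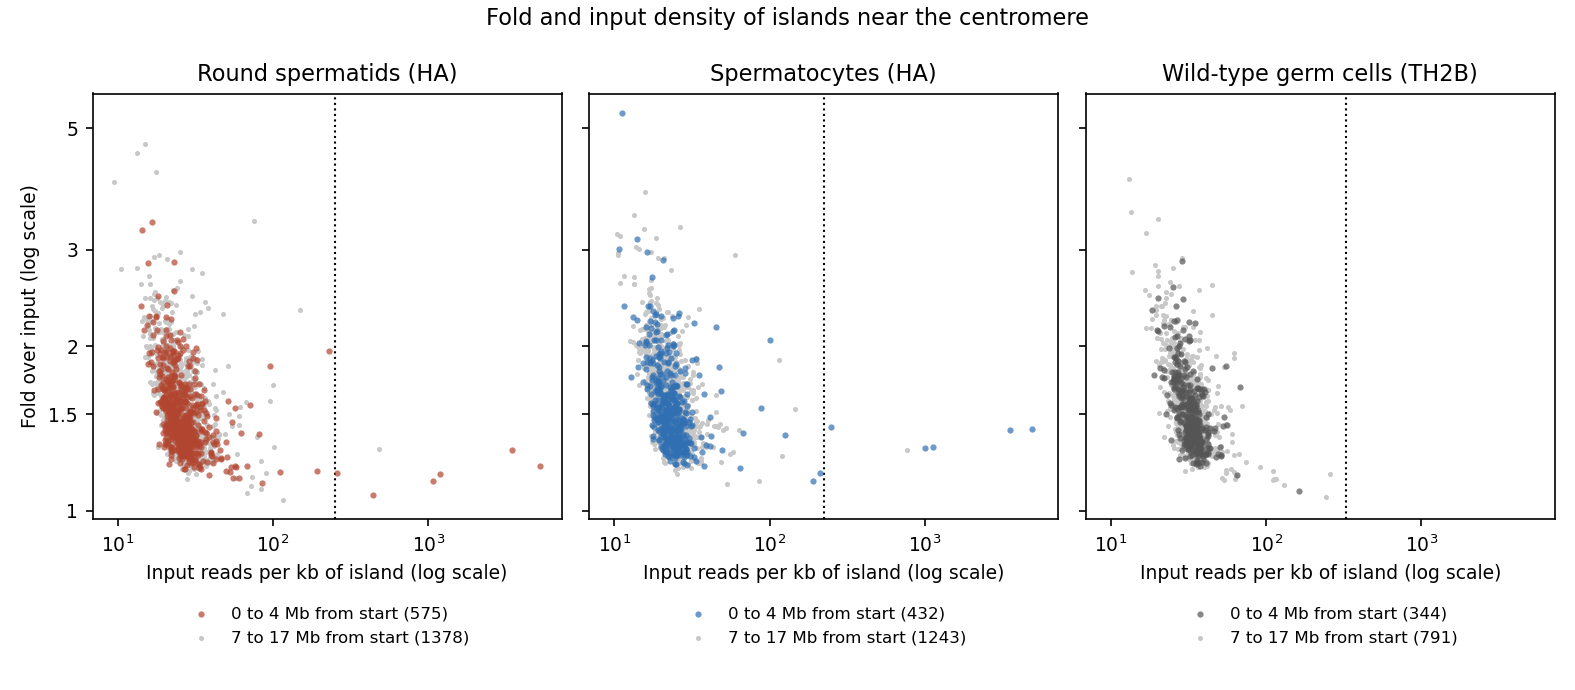
Fold over input against input reads per kb of island, both on log scales, for islands in the first 4 Mb of sequence (coloured) and from 7 to 17 Mb into the sequence (grey) in each list; the dotted line marks 10 times the list median. The coloured points right of the line number 6 in round spermatids, 5 in spermatocytes and 0 in wild-type germ cells.

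The densest was chr9:2999801-3038600, of 38800 bp, called with the same ends in both tagged lists at the very start of the chromosome. It had 233148 ChIP and 204593 input reads in round spermatids and 229021 ChIP and 189858 input reads in spermatocytes. Its input density was 211 times the list median in round spermatids and 217 times in spermatocytes. This island alone gave 64.2% of the near ChIP reads in round spermatids and 77.7% in spermatocytes. Its fold was 1.21 (1.2 to 1.21) in round spermatids and 1.41 (1.40 to 1.42) in spermatocytes, so on the scale of enrichment it lay below the median island of both lists.

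Shorter read-dense islands followed on chromosomes 12, 4 and 11, again at the same places in both tagged lists. On chromosome 12 the round spermatid island chr12:3109001-3110200 had 5038 ChIP and 4135 input reads, and the spermatocyte island chr12:3109201-3110400 had 5062 and 4223. On chromosome 4, chr4:3016401-3019600 had 4202 and 3821 reads in round spermatids and chr4:3016601-3019600 had 3813 and 3411 in spermatocytes. On chromosome 11, chr11:2999801-3005000 had 6006 and 5605 reads in round spermatids and chr11:2999801-3004800 had 5593 and 5030 in spermatocytes. The lower of the tagged lists' input densities was 138, 47.8 and 43.1 times the median at these 3 places.

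The remaining read-dense islands had no read-dense partner in the other tagged list. In round spermatids chr11:3025801-3100400 was the longest near island, of 74600 bp, with 32890 ChIP and 32669 input reads and a fold of 1.07 (1.05 to 1.08), and no spermatocyte island overlapped it. In spermatocytes chr6:3150801-3151800 had 303 and 249 reads and a fold of 1.43 (1.2 to 1.69), with no round spermatid island. At chr13:3371801-3374400 the round spermatid island had 10.4 times the median input and a fold of 1.17, and the overlapping spermatocyte island lay just under the limit, at 9.39 times with a fold of 1.17.

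No wild-type island overlapped any of these places. The densest wild-type island near a centromere was chr16:3231401-3250400, of 19000 bp, with 3304 ChIP and 3074 input reads, 4.94 times the median input density and a fold of 1.09 (1.03 to 1.14). It was also the longest, followed by chr16:3251801-3269400 of 17600 bp with a fold of 1.26 and chr19:3207001-3218200 of 11200 bp with 1.24. Both chromosome 16 islands touched the round spermatid island chr16:3249401-3264000, whose fold was 1.15 (1.04 to 1.26). The wild-type list did hold denser islands elsewhere, up to 1113 reads per kb of input on chromosome Y. So did the tagged lists, up to 8407 reads per kb in round spermatids and 9058 in spermatocytes. The chromosome 9 island was therefore not the densest of either whole list. A place outside a list may carry reads that missed the caller's threshold, and how repeated reads were mapped in each library is not given in the sources used here.

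At the 4 read-dense places shared by the tagged lists, enrichment was lower in round spermatids than in spermatocytes. The fold of round spermatids divided by that of spermatocytes was 0.855 (0.848 to 0.862) on chromosome 9, 0.920 (0.868 to 0.975) on chromosome 12, 0.890 (0.835 to 0.949) on chromosome 4 and 0.872 (0.827 to 0.919) on chromosome 11. The islands of both lists covered nearly the same stretch there, with 83.3% to 100% of the longer in common. Each ratio rests on 1 library per stage and on the authors' scaling of ChIP to input. Divided by the median fold of each list, the ratios ran from 0.880 to 0.947, and the interval on chromosome 12 (0.893 to 1.003) then held 1.

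**Figure D4:**
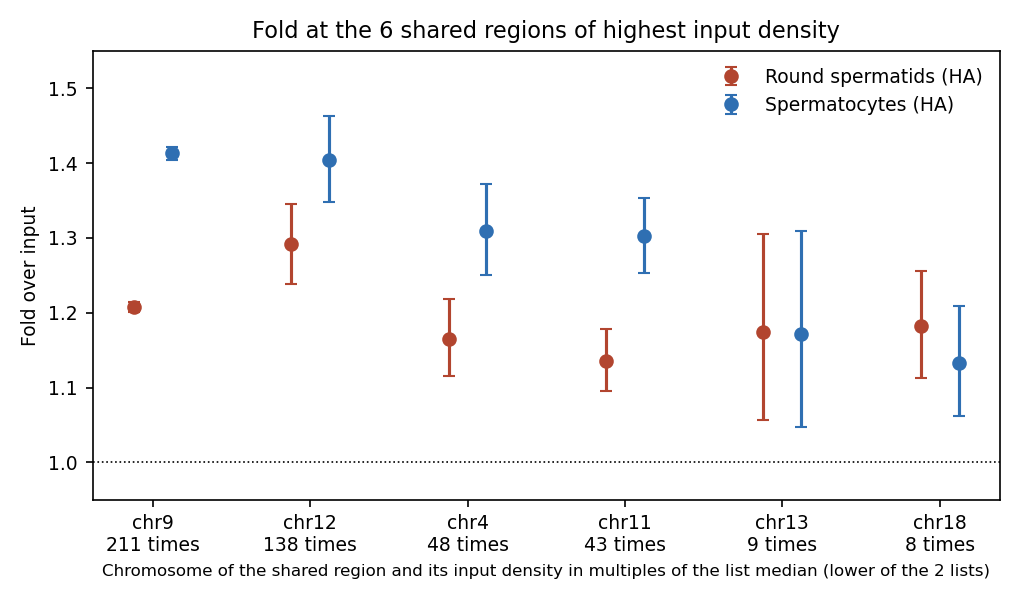
Fold over input in round spermatids and spermatocytes, with 95% counting intervals, at the 6 shared regions of highest input density near centromeres, ordered by that density. Round spermatids lie below spermatocytes on chromosomes 9, 12, 4 and 11, and the intervals overlap on chromosomes 13 and 18.

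The shared regions of lesser input did not follow. At chr13:3371801-3374800 the ratio was 1.0 (0.862 to 1.17), and at chr18:3003601-3014200, with at least 7.69 times the median input, it was 1.04 (0.956 to 1.14). Over the 76 shared near regions with under 2 times the median input the median ratio was 1.0 (0.932 to 1.09), with 38 below 1 and 38 above. Over all 85 shared near regions the counting interval lay below 1 in 6 and above 1 in 2. Of those below 1, 4 were the read-dense places above. Among the 76 regions with under 2 times the median input it lay below 1 in 2 and above 1 in 2. Elsewhere on these chromosomes it lay below 1 in 74 and above 1 in 38 of 2235 shared regions. The interval lay below 1 in 3.45% of all shared regions on these chromosomes. In the 14 read-dense shared regions elsewhere on these chromosomes the median ratio was 0.919 (0.860 to 1.05), with 10 below 1 and 4 above. A lower fold in round spermatids at read-dense places was thus not shown to be particular to centromeres.

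Without the read-dense islands the pooled enrichment of the near window was close to that at 10 to 20 Mb. The reads of all near islands together gave a fold of 1.23 in round spermatids, 1.42 in spermatocytes and 1.42 in wild-type germ cells. Leaving out the read-dense islands gave 1.42, 1.47 and 1.42, beside 1.44, 1.5 and 1.42 at 10 to 20 Mb. The low pooled value of round spermatids rested on its 6 read-dense islands.

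The high-fold islands, named where they had 50 or more ChIP reads, had input below the list median. In round spermatids the top 3 were chr13:6328201-6330600 with 127 ChIP and 40 input reads and a fold of 3.37 (2.34 to 4.93), chr11:3455601-3458200 with 3.27 (2.24 to 4.87) and chr15:4302601-4304000 with 2.85 (1.88 to 4.42). In spermatocytes the top 3 were chr6:6966801-6969000 with 83 and 31 reads and a fold of 3.14 (2.05 to 4.90), chr3:4250201-4253000 with 3.01 (1.95 to 4.75) and chr3:6106601-6108200 with 2.97 (1.86 to 4.88). An island of fewer reads, chr4:5818801-5819600 with 41 and 9, had a higher fold of 5.34 (2.55 to 12.5). The top 3 wild-type islands were chr5:3605401-3606200 with 65 and 23 reads and a fold of 2.86 (1.75 to 4.82), chr12:4544401-4545600 with 2.56 (1.66 to 4.05) and chr18:4853801-4855600 with 2.44 (1.64 to 3.71). The chromosome 13 island of round spermatids overlapped a spermatocyte island, whose fold was 1.27, and the others overlapped no island of another list.

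Long islands of ordinary input also occurred. Spermatocytes had chr15:3515601-3529800, of 14200 bp, with 410 ChIP and 373 input reads and a fold of 1.29 (1.12 to 1.49), and chr8:5157201-5167600, of 10400 bp, with a fold of 1.22 (1.02 to 1.45). Their input densities were 1.17 and 1.12 times the list median. Neither overlapped an island of another list.

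Round spermatids had more islands than spermatocytes near the centromere, and the excess was larger there than further out. The counts were 575 and 432, a ratio of 1.33 (1.17 to 1.51), beside 1378 and 1243 at 10 to 20 Mb, a ratio of 1.11 (1.03 to 1.2). The near ratio divided by the other was 1.2 (1.04 to 1.39), and without chromosome 18 it was 1.15 (0.994 to 1.34), an interval that holds 1. Round spermatids had more near islands on 14 of 18 chromosomes, fewer on 3 and as many on 1, and at 10 to 20 Mb more on 12 and fewer on 6. In the first 500 kb the counts were 108 and 62 (1.74, 1.26 to 2.42), and 85 and 51 (1.67, 1.16 to 2.41) among islands there with under 2 times the median input. Within that stretch they were 32 and 23 in the first 100 kb (1.39, 0.789 to 2.49) and 76 and 39 from there to 500 kb (1.95, 1.31 to 2.95). Without the first 500 kb the near ratio divided by that of 10 to 20 Mb was 1.14 (0.974 to 1.33), an interval that holds 1. Islands with a fold of at least 2 went the other way, with 30 in round spermatids and 45 in spermatocytes (0.667, 0.406 to 1.08). That interval holds 1. The direction was the same at 10 to 20 Mb, with 98 and 109, and over the whole lists, with 1105 of 17340 and 1378 of 15585.

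Single chromosomes carried this excess unequally. Chromosome 18 had 29 near islands in round spermatids and 10 in spermatocytes (2.90, 1.37 to 6.67), while it had 73 and 79 at 10 to 20 Mb. Chromosome 16 had 37 and 17 (2.18, 1.2 to 4.12), beside 35 and 27. Chromosome 1 had 65 and 40 (1.63, 1.08 to 2.47), beside 117 and 111. Chromosome 7 had 24 and 11 (2.18, 1.03 to 4.93), but 101 and 34 at 10 to 20 Mb, so its excess was not particular to the centromeric end. These 4 chromosomes were those whose interval lay above 1 among 18, and the intervals were not corrected for that choice.

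The excess of islands over wild-type germ cells was smaller near the centromere than further out in spermatocytes, and differed by less than counting error in round spermatids. The near ratio of round spermatids to wild-type germ cells was 1.67 (1.46 to 1.92), beside 1.74 (1.60 to 1.90) at 10 to 20 Mb. That of spermatocytes to wild-type germ cells was 1.26 (1.09 to 1.45), beside 1.57 (1.44 to 1.72). The near ratio divided by the other was 0.959 (0.818 to 1.13) for round spermatids and 0.799 (0.676 to 0.945) for spermatocytes. Chromosomes 1 and 3 stood furthest to the tagged side, with 65, 40 and 7 near islands in round spermatids, spermatocytes and wild-type germ cells on chromosome 1 and 44, 31 and 5 on chromosome 3. At 10 to 20 Mb chromosome 1 had 117, 111 and 29 islands and chromosome 3 had 69, 82 and 17. The excess of the tagged lists on chromosomes 1 and 3 was thus not confined to the centromeric end. Chromosome 19 stood furthest to the wild-type side, with 3, 2 and 18 near islands, beside 91, 84 and 72 at 10 to 20 Mb.

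Islands near the centromere recurred between lists about as often as elsewhere. Of the round spermatid islands, 88 of 575 overlapped a spermatocyte island (15.3%, 12.5 to 18.5), beside 14.4% at 10 to 20 Mb and 15.5% of the whole list. Of the spermatocyte islands, 85 of 432 overlapped a round spermatid island (19.7%, 16.0 to 23.7), beside 15.9% and 17.2%. Of the wild-type islands, 41 of 344 overlapped a tagged island (11.9%, 8.69 to 15.8), beside 15.5% and 10.6%. The intervals of the near window and of 10 to 20 Mb overlapped in all 3 cases.

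Merging overlapping islands gave 6 regions near centromeres that held islands of all 3 lists. Within them, 4 round spermatid, 4 spermatocyte and 6 wild-type islands each overlapped islands of both other lists, and the rest were joined through another island. Islands overlapping both other lists were 0.696% (0.190 to 1.77), 0.926% (0.253 to 2.35) and 1.74% (0.643 to 3.76) of the near islands. At 10 to 20 Mb the shares were 0.943% (0.503 to 1.61), 1.05% (0.558 to 1.78) and 1.39% (0.696 to 2.47). The intervals of the windows overlapped in each list, so such islands were not shown to be more frequent near centromeres. The 6 regions were chr15:6791801-6801600, chr5:4639601-4651000, chr12:6926001-6935000, chr16:6420401-6431200, chr15:3001201-3011800 and chr18:4031201-4036800. In the first, the folds were 1.48 in round spermatids, 2.04 in spermatocytes and 1.43 in wild-type germ cells, from 172, 150 and 319 ChIP reads. In chr5:4639601-4651000 they were 1.40, 1.31 and 1.43, and in chr12:6926001-6935000 they were 1.44, 1.30 and 1.42. One of the 6, chr15:3001201-3011800, lay at the start of its chromosome, with folds of 1.56, 1.28 and 1.26, and there the round spermatid and spermatocyte islands did not overlap each other. In none of these regions did the input reach 2 times the list median.

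The first island of a chromosome began within 100 kb of 3 Mb on 14 of 18 chromosomes in round spermatids, 14 in spermatocytes and 9 in wild-type germ cells. Other stretches of 100 kb were not counted in this way, so no background share stands beside these counts. In wild-type germ cells the density of the first 100 kb (6.11 per Mb, 3.05 to 10.9) had an interval that held the 4.39 of 10 to 20 Mb. On chromosomes 9 and 11 the first island began in the last window before 3 Mb in both tagged lists. On chromosome 18 it began in the first window after 3 Mb in round spermatids (chr18:3000001-3002800, fold 1.29). In wild-type germ cells it began in the next window (chr18:3000201-3001400, fold 1.43). These chromosome 18 islands overlapped, as did those at chr13:3001801-3003200 in round spermatids (fold 1.39) and chr13:3001801-3003000 in wild-type germ cells (fold 1.42). First islands with ordinary input had folds of 1.16 to 2.09 in round spermatids, the highest being chr5:3005801-3007600.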

How the data were processed

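TH2B was measured by ChIP-seq in 3 ChIP libraries, with 3 inputs. Islands were called with SICER on mm9, per the submitters' processing notes, and the names of the deposited lists give a window of 200 bp and a gap of 600 bp. Which aligner, versions and read filters were used the labels do not say. Per island the authors deposited 2 counts of reads, ChIP and control, a p-value, an FDR (at most 0.00999) and a fold. This fold was found to be ChIP over control reads, divided by a scaling constant (0.944 in round spermatids, 0.854 in spermatocytes, 0.989 in wild-type germ cells). Each list's control was assumed to be the matching input, by title. The wild-type input carries an antibody label, and its title was followed. The labels' protocol names pooled fractions of the tagged cells, read here as pooled within each type.

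Starts were counted from 0 in the files and are printed from 1. Ends were brought to 1 convention. Density was islands divided by 72 Mb near the centromere and by 180 Mb at 10 to 20 Mb. Ratios of counts have exact conditional binomial intervals, shares exact Clopper-Pearson intervals, medians binomial order-statistic intervals, and ratios of folds or of density ratios log-scale intervals. Overlap needed 1 bp in common (bedtools 2.31.1). Python 3.11.15, numpy 2.4.6, pandas 2.3.3, scipy 1.17.1 and matplotlib 3.10.9 were used, and the intervals and overlap were tested on simulated data. Named per list were the 3 islands with the highest fold among those of 50 or more ChIP reads, the 3 longest and the 3 of highest input density, the first islands within 100 kb of 3 Mb, regions in all 3 lists, and the 3 chromosomes with most and with fewest near islands. Other islands and chromosomes named were chosen after their values were seen. The members and windows were chosen with earlier results of these data known. The alternatives tried were a stricter FDR, a fold of at least 2, usual input density, other windows, placing by midpoint, covered share, reciprocal overlap and leaving out each chromosome. No gene or sequence is given, since no mm9 annotation was used here.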

Additional observations from a re-analysis of the deposited data

Results flagged for a closer look

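In the comparisons below the ratio of the near window to 10 to 20 Mb lay on opposite sides of 1 in a pair of lists, each of 1 library, and the difference was not tested. The density intervals of round spermatids and wild-type germ cells held 1. The density of islands near the centromere divided by that at 10 to 20 Mb was 1.04 in round spermatids and 0.869 in spermatocytes, which differ by a factor of 1.2. The spermatocyte ratio divided by the 1.09 of wild-type germ cells was 0.799. The share of islands with a fold of at least 2, near the centromere over 10 to 20 Mb, was 0.734 in round spermatids and 1.19 in spermatocytes, a factor of 0.618. The spermatocyte value divided by the 0.790 of wild-type germ cells was 1.5. In each list the counting intervals of the share near the centromere and at 10 to 20 Mb overlapped.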

How the results depend on the processing

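Values were recomputed under 93 alternatives, of which 64 stayed inside the counting interval, 25 left it and 4 turned a direction whose interval had left out 1. Another 3 ratios whose interval held 1 moved to the other side of it, and are marked as crossed. No paired analysis was possible because each group had 1 library. The cause of a change was not tested unless it follows from the subset taken. Alternatives without the first 100 kb, without read-dense islands, with folds over list medians, and without single chromosomes for the ratio of ratios were chosen after seeing the data. For islands with a fold of at least 2, the near density over that of 10 to 20 Mb was 0.765 in round spermatids (crossed). It was 1.03 (0.712 to 1.47) in spermatocytes (turned) and 0.859 in wild-type germ cells (crossed). Near islands at that fold gave a ratio of 0.667 (0.406 to 1.08) for round spermatids over spermatocytes (turned). Over wild-type germ cells the ratios were 1.36 for round spermatids and 2.05 for spermatocytes. Relative to 10 to 20 Mb the ratios over wild-type germ cells turned to 0.959 (0.818 to 1.13) for round spermatids and 0.799 (0.676 to 0.945) for spermatocytes. Both are ratios of ratios, a measure unlike the ratios of counts they were set against. Of the turned values only that 0.799 had an interval that left out 1. With 20 to 30 Mb as the comparison the wild-type density ratio was 0.952 (crossed). At an FDR of 0.0001 median input density was 23.1, 20.7 and 29.4 reads per kb in round spermatids, spermatocytes and wild-type germ cells, and median fold 1.62, 1.70 and 1.66, since that subset selects high folds. Below 5 Mb, median input density was 26.0 in round spermatids and 24.0 in spermatocytes. The shares with a fold of at least 1.5 were 41.0%, 47.9% and 44.5%. Without read-dense islands the pooled fold was 1.42 in round spermatids and 1.47 in spermatocytes. With 50% reciprocal overlap the shares of overlapping islands were 7.83%, 10.4% and 5.23% for round spermatids over spermatocytes, the reverse, and wild-type over tagged, and 6.83%, 9.05% and 4.76% at the stricter FDR. The fold ratio on chromosome 9 was 0.880 relative to list medians. Leaving out single chromosomes kept the ratio of ratios of round spermatids over spermatocytes between 1.15 and 1.24. Depth outside islands was not known.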
